A study of Mus musculus with 16 samples.

Results

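The response of littermate control mouse embryo fibroblasts (MEFs) to tumor necrosis factor-α (TNFα) was taken from the 8 littermate arrays among the 16 arrays of the study. The labels give these cells as genotype WT on a mixed C57Bl/6 x 129Sv background. Of the 8 arrays, 4 were from untreated cells and 4 from cells given recombinant human TNFα at 10 ng/ml, for 45 min by the array labels and for 1 h by the methods text. The other 8 arrays held untreated and TNFα-treated MEFs from SIMPL-/- mice of the same background, which lack the NF-κB co-activator SIMPL (gene Irak1bp1), and they enter below only where the littermate response was set against theirs. Fibroblasts came, by the methods text, from a single embryo on each of 4 occasions per genotype. No label ties a treated array to an untreated one or gives a batch, so the p-values measure the spread between arrays. Arrays are numbered 1 to 4 in deposit order within a group, and the values of a group are always given in that order.

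TNFα binds its type 1 receptor, which assembles a complex that activates the IκB kinases, the JNK and p38 MAP kinases and, through MAP3K8, ERK. NF-κB then enters the nucleus and switches on its own inhibitors and the chemokine genes within minutes. Fibroblasts are known to answer inflammatory cytokines with adhesion molecules, matrix enzymes, growth factors and a burst of short-lived transcription factors. The genes below are those outside the chemokines, the NF-κB feedback genes and the Rel and IκB kinase genes, whose rise is familiar. Of these 65 familiar genes 33 rose and 0 fell, among them, by log2 response, Tnfaip3 (3.70), Nfkbia (3.34) and Cxcl10 (4.03).

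Levels are log2 values of 1 probe set per gene over 19938 genes, the log2 response is the treated mean minus the untreated mean with its standard error (n = 4 arrays in each group), and a gene is said to have risen or fallen at a limma adjusted p under 0.05. By that rule 453 genes rose (2.27% of those tested) and 372 fell (1.87%). These shares are the background for the count of each list below. Of the risers, 420 were outside the familiar lists. Rises were the larger changes: the median fold of the 420 was 1.35, 52 of them exceeded 2-fold and 8 exceeded 4-fold. The median fold of the falls was 1.26, and a single gene, Dusp6, fell by more than 2-fold. Leaving out 1 array at a time gave 307 to 402 risers and 174 to 301 fallers, with the count of fallers over 1.5 times lower without untreated array 1 (174), 2 (212), 3 (234) or 4 (231) or treated array 4 (210). With limits of 1.5-fold at an unadjusted p under 0.001, 167 genes rose (0.838%) and 27 fell (0.135%). All treated arrays lay above all untreated arrays for 1053 genes (5.28%) and below them for 1219 (6.11%). The median response of all genes was 0.01, and none of the 12 housekeeping genes was called.

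**Figure D1:**
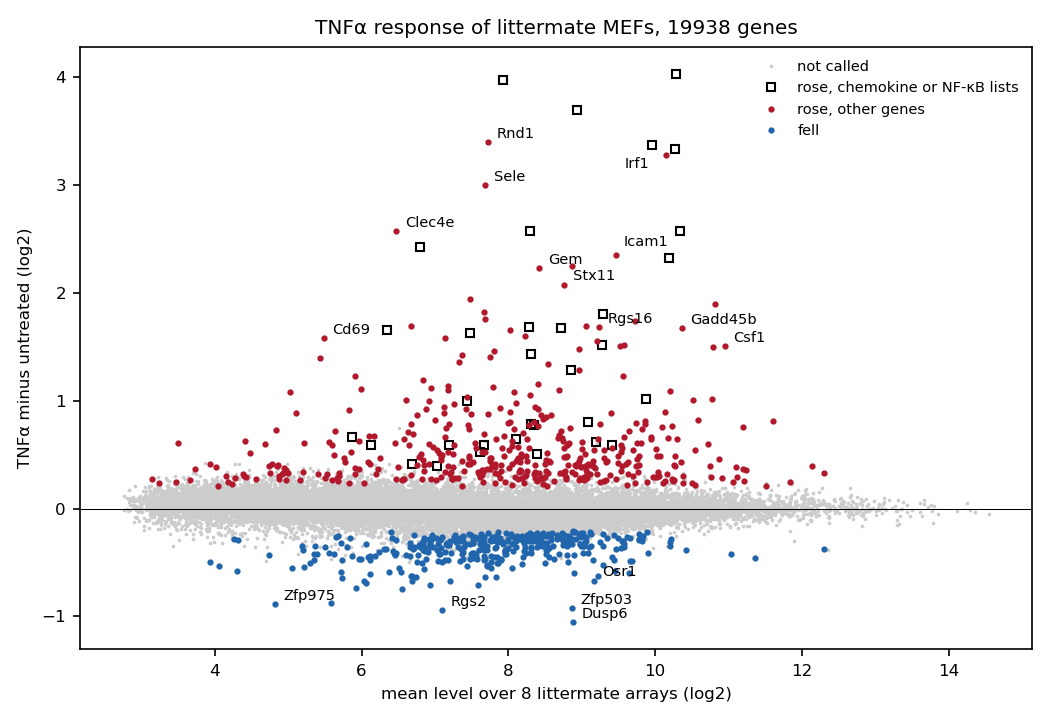
Each point is 1 of 19938 genes, placed by its mean log2 level over the 8 littermate arrays (horizontal) and its log2 response to TNFα (vertical); open squares are risers of the chemokine, NF-κB feedback and Rel lists, red points are the other risers, blue points are genes that fell and grey points were not called. Rises reach 3.40 among the red points at Rnd1, whereas the lowest blue point is Dusp6 at -1.05.

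The cultures carried the RNA of fibroblasts and also that of myeloid cells. The 15 fibroblast markers, among them the collagens, Vim and Pdgfra, averaged 12.27 to 12.37 on the untreated arrays and 12.26 to 12.30 on the treated ones, and none was called. The 28 myeloid markers averaged 9.20 to 9.58 without and 9.32 to 9.76 with TNFα, with a median response of 0.12, and 3 of them rose (Cd14, Cybb and Clec4d). By their mean over the 8 arrays the 28 ran from 6.00 for Aif1, 7.28 for Fcgr2b and 7.52 for Lyz1 up to 12.07 for Lyz2, with the macrophage markers Adgre1 at 9.72, Csf1r at 10.31 and Cd68 at 11.41. In the SIMPL-/- cultures the same 28 markers averaged 7.29 to 7.40 without and 7.30 to 7.40 with TNFα, below every littermate array. Endothelial (10), epithelial (9) and lymphoid, mast or erythroid (13) markers had no called gene, whereas 1 of 12 muscle and neural markers (Sox2) and 1 of 10 chondrocyte, osteoblast and adipocyte markers (Sox9) fell. The median responses of the endothelial, epithelial and lymphoid, mast or erythroid markers were 0.116, 0.135 and 0.085, against 0.009 over all genes. No endothelial or epithelial marker had a negative estimate, against 46.2% of all genes. A small upward lean was thus not particular to the myeloid markers. In such mixed RNA, fewer cells of a type and less RNA per cell cannot be told apart. Irak1bp1 itself lay between 7.65 and 8.21 on the littermate arrays and between 5.08 and 5.62 on the SIMPL-/- arrays, as the labels have it.

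The greatest rise outside the familiar lists was in a gene of the cytoskeleton. Rnd1, a GTP-binding protein that loosens actin stress fibres, stood at 6.03, 6.45, 5.82 and 5.82 without TNFα and at 9.21, 9.71, 9.45 and 9.34 with it. All treated arrays were far above all untreated ones, and the rise came to 3.40 ± 0.14 (10.5-fold, adjusted p = 6.82e-08). Its relative Rnd3 rose by much less, 0.29 ± 0.06 (adjusted p = 0.0162). The Rnd3 call was lost without untreated arrays 1 or 4 or treated array 3 (adjusted p = 0.0519 to 0.0531). Gem, a small GTP-binding protein that restrains voltage-gated calcium channels, moved from 7.38, 7.28, 7.28 and 7.29 to 9.51, 9.63, 9.63 and 9.39. The spread within either group was small beside the step between them, 2.23 ± 0.07 (4.7-fold, adjusted p = 3.89e-09). Rasgef1b, an exchange factor for Ras-type GTPases, gave 6.57, 6.35, 6.66 and 6.44 untreated and 8.53, 8.70, 8.69 and 7.87 treated. The groups were apart, with treated array 4 the lowest of its group, and the rise was 1.94 ± 0.16 (adjusted p = 2.51e-05).

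The regulators of G protein signalling, which shorten the signal of heterotrimeric G proteins, moved in both directions. Of 13 measured genes of this class (with Gem and the adenosine and prostanoid receptors) 3 rose and 1 fell. Rgs16 stood at 8.49, 8.41, 8.41 and 8.28 without and 10.01, 10.13, 10.10 and 10.09 with TNFα. The treated arrays were tightly grouped above the untreated ones, by 1.68 ± 0.06 (3.21-fold, adjusted p = 1.79e-08). Rgs4 rose by 0.82 ± 0.10 (adjusted p = 0.000602). Rgs2, by contrast, read 7.56, 7.32, 7.80 and 7.61 in untreated cells and 6.57, 6.60, 6.88 and 6.46 in treated cells. Every treated array was below every untreated one, and the fall of -0.94 ± 0.11 (1.92-fold lower, adjusted p = 0.00041) was the second in size among all genes. Stx11, a syntaxin of vesicle fusion known from cytotoxic granules, rose by 2.08 ± 0.08 (4.22-fold, adjusted p = 3.01e-08), and Sik1, a kinase that holds back CREB co-activators, by 1.55 ± 0.06 (2.94-fold, adjusted p = 4.44e-08).

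**Figure D2:**
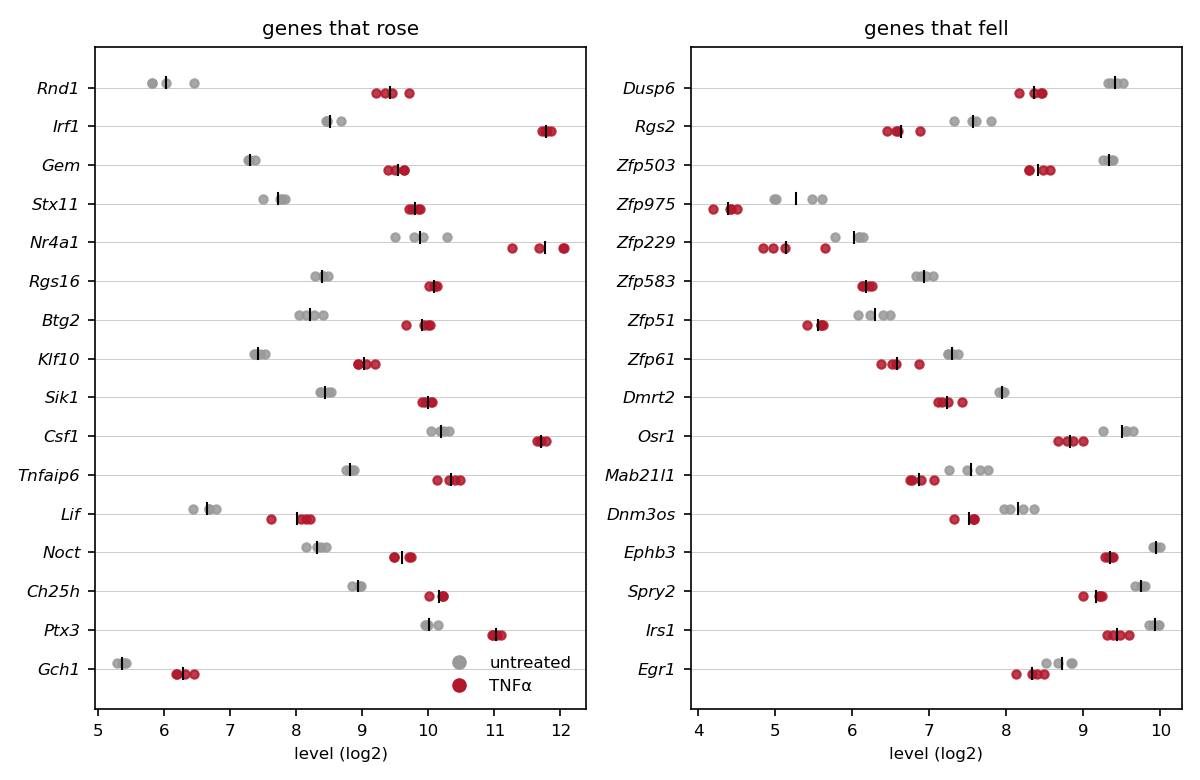
Log2 level (horizontal) of 16 genes that rose, left, and 16 that fell, right, with 1 point per array (grey, untreated; red, TNFα; n = 4 each) and a black bar at each group mean. The groups are apart in all 32 rows; the step is over 3 log2 units at Rnd1 and Irf1 and about 1 unit at Dusp6, the greatest fall.

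Immediate early transcription factors were the list with the greatest share of risers. Of 31 measured, 24 rose and 1 fell, against 2.27% and 1.87% of all genes, and the list's median response was 0.67 against 0.01 over all genes. All lists were chosen with earlier results of these data known, so this ranking is a description. Nr4a1, an orphan nuclear receptor, rose the most of the list. It stood at 9.78, 9.49, 10.28 and 9.92 without and 11.27, 11.68, 12.06 and 12.05 with TNFα. Treated array 1 was the lowest of its group but still above every untreated array, and the rise was 1.89 ± 0.19 (3.71-fold, adjusted p = 0.000117). Nr4a3 rose by 1.58 ± 0.11 and Nr4a2 by 0.67 ± 0.09 (adjusted p = 7.05e-06 and 0.00107). Among AP-1 and related leucine zipper factors the responses were 1.48 (adjusted p = 1.61e-05) for Atf3, 1.43 (adjusted p = 8.89e-06) for Maff, 1.08 (adjusted p = 8.18e-06) for Junb, 0.92 (adjusted p = 0.00325) for Fosl1, 0.89 (adjusted p = 0.00204) for Fosb and 0.79 (adjusted p = 6.32e-05) for Jun. C/EBP factors, which act in acute phase and adipocyte gene control, also rose, Cebpd by 0.97 ± 0.08 and Cebpb by 0.64 ± 0.06 (adjusted p = 1.94e-05 and 5.4e-05). Fosl1 and Fosb were not called by the methods' t-test (adjusted p = 0.0675 and 0.0542).

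Members of one family moved apart at this time. Egr2 and Egr3, zinc finger factors induced by growth signals, rose by 0.93 ± 0.13 and 0.65 ± 0.07 (adjusted p = 0.00221 and 0.00036). Egr1, the best known of them, went the other way, with 8.86, 8.51, 8.84 and 8.67 in untreated cells and 8.13, 8.34, 8.39 and 8.49 in treated cells. The groups were just apart, and the fall of -0.38 ± 0.10 had an adjusted p of 0.0489. That call was lost without untreated arrays 1, 3 or 4 or treated arrays 1, 2 or 3 (adjusted p = 0.0838 to 0.146), and also after median centring (0.0597), after quantile normalization (0.055) and by the methods' t-test (0.176). Fos gave 7.76, 7.30, 8.17 and 7.78 without and 7.63, 7.31, 7.31 and 7.45 with TNFα. The groups overlapped, and Fos was not called (-0.32 ± 0.15, adjusted p = 0.32). Myc, the growth regulator, rose by 0.79 ± 0.12 (adjusted p = 0.00296), Bhlhe40, a circadian repressor, by 0.79 ± 0.08 (adjusted p = 9.65e-05) and the clock gene Per1 by 0.64 ± 0.08 (adjusted p = 0.000643). Csrnp1, a cysteine- and serine-rich nuclear protein, rose by 1.13 ± 0.07 (adjusted p = 1.63e-06). The methods' t-test did not call Egr2 or Myc (adjusted p = 0.0567 and 0.0593).

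Krüppel-like factors were likewise divided, with 4 of 13 risers and 1 faller. Klf10, first described as a TGF-β inducible early gene, stood at 7.38, 7.53, 7.46 and 7.36 without and 8.94, 9.20, 8.94 and 9.06 with TNFα. Treated and untreated arrays were far apart, by 1.60 ± 0.07 (3.04-fold, adjusted p = 1.23e-07). Klf6 and Klf7 rose by 0.54 and 0.61 (adjusted p = 0.00191 and 0.00107), while Klf3, a repressor, fell (-0.30 ± 0.05, adjusted p = 0.00574). Of 36 genes of the TGF-β, BMP and activin pathway, 5 rose (13.9%) and 1 fell (2.78%), with a list median of -0.001. The risers included the inhibitors of Smad signalling Skil (0.67, adjusted p = 2.79e-05), Tgif1 (0.65, adjusted p = 2.14e-05) and Smad7 (0.56, adjusted p = 0.000567), besides the ligand Bmp2 (0.47, adjusted p = 0.0311), and Id4, a dominant negative helix-loop-helix protein, fell (-0.45, adjusted p = 0.00425). The Bmp2 call was lost without untreated arrays 1, 3 or 4 or treated arrays 1, 2, 3 or 4 (adjusted p = 0.0613 to 0.1) and by the methods' t-test (adjusted p = 0.154).

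Genes that restrain kinase signalling moved in both directions. Dusp6, the cytoplasmic phosphatase of ERK, read 9.32, 9.36, 9.51 and 9.44 in untreated cells and 8.17, 8.46, 8.35 and 8.45 in treated cells. All treated arrays were well below all untreated ones, and the change of -1.05 ± 0.08 (2.07-fold lower, adjusted p = 8.18e-06) was the deepest fall of any gene tested. Dusp7, also an ERK phosphatase, fell by 0.34 on the log2 scale (adjusted p = 0.00552). Spry2, a Sprouty inhibitor of receptor tyrosine kinase signalling, stood at 9.77, 9.74, 9.67 and 9.79 before and 8.99, 9.22, 9.24 and 9.20 after TNFα. The groups were apart, with treated array 1 the lowest, and Spry2 fell by 0.58 on the log2 scale (adjusted p = 0.000382). The phosphatases of JNK and p38, Dusp16 and Dusp8, rose by 0.83 ± 0.07 and 0.74 ± 0.07 (adjusted p = 5.35e-05 and 0.000106). Dusp1 was not called (0.07 ± 0.10, adjusted p = 0.78) and Spry4 was not called either (0.21 ± 0.08, adjusted p = 0.182). In all, 3 of 11 dual specificity phosphatases rose (27.3%) and 2 fell (18.2%). Of 18 ERK feedback genes 2 fell (11.1%), Dusp6 and Spry2. Another 2 of the 18 rose (11.1%), Phlda1 (1.10, adjusted p = 8.91e-07) and the EGF receptor inhibitor Errfi1 (1.09, adjusted p = 0.00037).

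Map3k8, the kinase that couples TNF and Toll-like receptors to ERK, rose by 1.40 ± 0.09 (2.65-fold, adjusted p = 1.98e-06), and it was the strongest of 4 risers among 25 genes of the receptor complex and MAP3K signalling. Pim1, a survival kinase, stood at 8.73, 8.89, 8.93 and 8.84 without and 10.35, 10.65, 10.76 and 10.59 with TNFα. The treated arrays were all higher, by 1.74 ± 0.09 (3.34-fold, adjusted p = 2.73e-07). Of 27 apoptosis regulators 8 rose (29.6%) and 0 fell, on both sides of the pathway. Those that protect cells included Gadd45b (1.67 ± 0.07, adjusted p = 3.9e-08), Ier3 (1.34 ± 0.10, adjusted p = 1.05e-05) and Mcl1 (0.26 ± 0.05, adjusted p = 0.0208). Those that promote death included Bbc3, a BH3-only protein (0.39 ± 0.06, adjusted p = 0.00403), and Casp4, an inflammatory caspase that senses lipopolysaccharide (1.13 ± 0.10, adjusted p = 5.9e-05). Fas, the death receptor, read 7.16, 7.08, 7.09 and 6.98 without and 8.54, 8.61, 8.55 and 8.46 with TNFα. The groups were far apart, by 1.46 ± 0.06 (2.76-fold, adjusted p = 4.9e-08). The ligands Tnfsf9 (1.19, adjusted p = 4.72e-05) and Tnfsf15 (0.88, adjusted p = 6.5e-06) were among the 8 risers of 35 TNF superfamily members. Without untreated arrays 1, 2 or 3 or treated arrays 1 or 3 (adjusted p = 0.0508 to 0.0682) the Mcl1 call was lost.

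Some secreted factors that act on other cells rose. Of 27 interleukins and haematopoietic growth factors 4 rose (14.8%), and of 27 tissue growth factors 3 rose (11.1%), against 2.27% of all genes. None of either list fell. Csf1, the growth factor of macrophages, was bright in untreated cells at 10.24, 10.32, 10.19 and 10.04 and reached 11.70, 11.65, 11.69 and 11.79 with TNFα. The groups were tight and apart, by 1.51 ± 0.07 (2.85-fold, adjusted p = 1.23e-07). Lif, which sustains stem cells and acts through STAT3, rose by 1.36 ± 0.12 (2.57-fold, adjusted p = 5.27e-05). Il6 remained dim, with 4.21, 4.79, 5.07 and 4.61 untreated and 4.97, 5.72, 5.77 and 5.75 treated. Treated array 1 lay among the untreated arrays, so the groups overlapped, although Il6 was called (0.89 ± 0.20, adjusted p = 0.0311). Csf2, also dim, rose by 0.60 ± 0.07 (adjusted p = 0.00043). The keratinocyte growth factor Fgf7 rose by 0.90 ± 0.07, the platelet-derived growth factor chain Pdgfb by 0.88 ± 0.09 and the EGF receptor ligand Ereg by 0.93 ± 0.18 (adjusted p = 9.34e-06, 0.000117 and 0.0147). For Ereg the treated arrays stood at 6.71, 7.56, 7.53 and 7.56, with treated array 1 far below the others. The Il6 call was lost without untreated arrays 1, 2 or 4 or treated arrays 2, 3 or 4 (adjusted p = 0.0661 to 0.0939), and the Ereg call without untreated arrays 2 or 4 (adjusted p = 0.0515 to 0.053). Neither was called by the methods' t-test (adjusted p = 0.182 and 0.131).

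Several genes that act on mRNA itself rose. Of 22 mRNA decay and translation regulators 8 rose and 1 fell. Btg2, which recruits the CCR4-NOT deadenylase and restrains growth, stood at 8.27, 8.05, 8.40 and 8.15 without and 9.66, 9.99, 10.03 and 9.94 with TNFα. The groups were apart by 1.69 ± 0.10 (3.23-fold, adjusted p = 1.09e-06), and its paralogue Btg1 rose by 0.75 ± 0.05 (adjusted p = 7.11e-06). Zfp36 (tristetraprolin), which binds AU-rich elements of cytokine mRNAs, read 7.95, 7.66, 7.88 and 7.81 untreated and 8.86, 8.91, 9.25 and 8.90 treated. All treated arrays were higher, and the rise was 1.15 ± 0.09 (2.23-fold, adjusted p = 2.26e-05). Zfp36l1 followed (0.66, adjusted p = 0.000215). Noct, a circadian relative of the deadenylases, rose by 1.28 ± 0.08 (adjusted p = 4.2e-06) and Zc3h12c, an endonuclease of the Regnase family, by 0.77 ± 0.06 (adjusted p = 7.97e-06). The single faller was Pdcd4, an inhibitor of translation (-0.35 ± 0.07, adjusted p = 0.0156). It was not called without untreated arrays 1 or 4 (adjusted p = 0.0519 to 0.0576), in the fit of all 16 arrays (0.0808) or by the methods' t-test (0.0671).

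**Figure D3:**
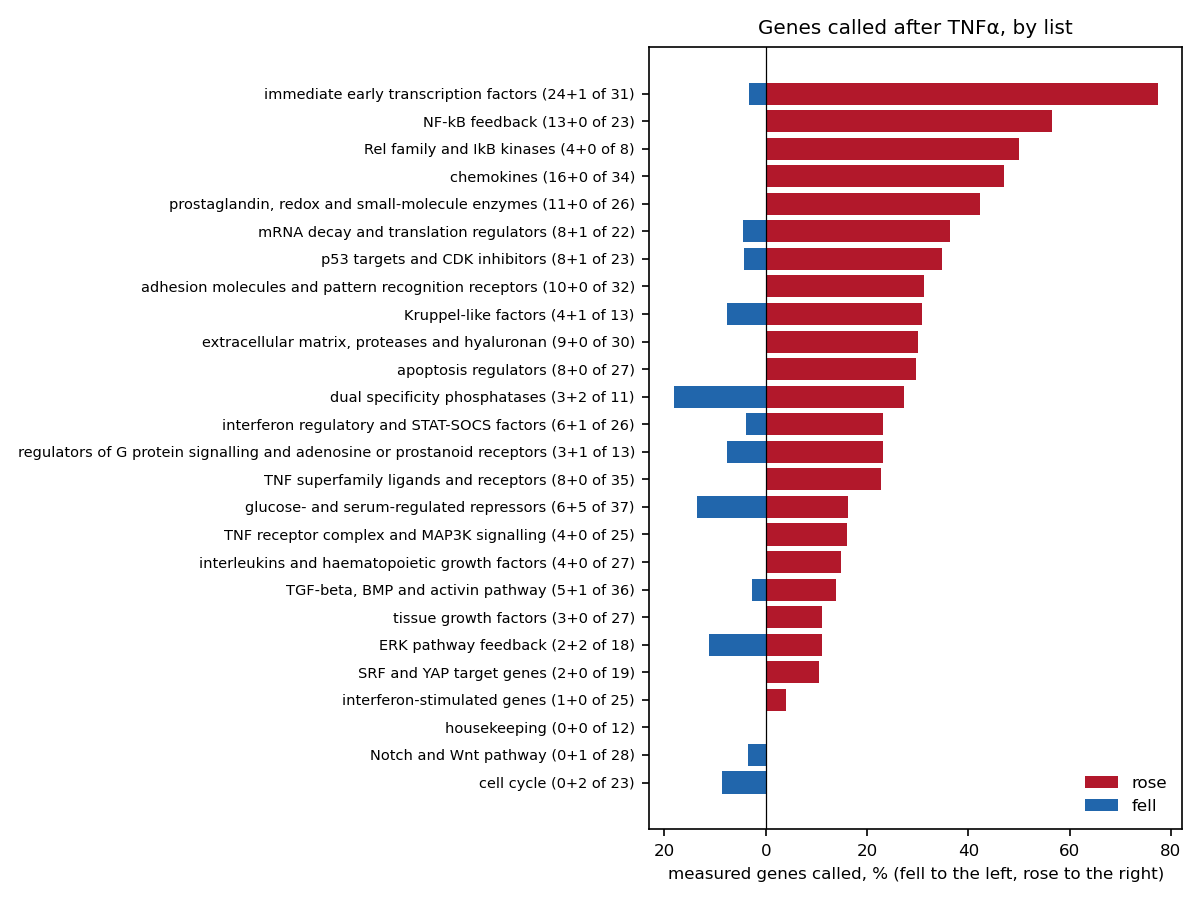
Share of the measured genes of each list that rose (red, to the right) or fell (blue, to the left) after TNFα in littermate MEFs, in percent of the list; the numbers rose + fell of measured stand beside each name. Immediate early transcription factors (24 of 31) come first, before the 3 familiar lists. For interferon-stimulated genes (1 of 25, 4%) and cell cycle genes (0 of 23) the share of risers was near that of all genes (2.27%).

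Enzymes of small molecules had many risers and no faller. Of 26 prostaglandin, redox and small-molecule enzymes and transporters 11 rose, with a list median of 0.19. Ch25h, which makes the oxysterol 25-hydroxycholesterol, stood at 8.98, 8.85, 8.98 and 8.96 without and 10.01, 10.23, 10.23 and 10.21 with TNFα. The groups were tight and apart by 1.23 ± 0.07 (2.35-fold, adjusted p = 5.52e-07). Acod1, which makes itaconate, rose by 1.01 ± 0.08 (adjusted p = 1.13e-05), Gch1, the first enzyme of tetrahydrobiopterin synthesis, by 0.92 ± 0.07 (adjusted p = 1.36e-05), the metallothionein Mt2 by 0.82 ± 0.07 (adjusted p = 4.71e-05) and the mitochondrial superoxide dismutase Sod2 by 0.72 ± 0.06 (adjusted p = 1.76e-05). In the prostaglandin branch the synthase Ptges rose (0.62 ± 0.07, adjusted p = 0.000382), while Ptgs2, the inducible cyclooxygenase upstream of it, gave 9.0, 8.56, 9.12 and 8.96 untreated and 9.07, 9.46, 9.70 and 9.80 treated. The Ptgs2 groups overlapped at treated array 1 and the gene was not called (0.60 ± 0.15, adjusted p = 0.0588). It was called without treated array 1 (adjusted p = 0.0108), in the fit of all 16 arrays (0.00871), without dim genes (0.0361) and with array weights (0.0366).

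Of 30 matrix, protease and hyaluronan genes 9 rose. Tnfaip6 (TSG-6), which links hyaluronan to inter-α-inhibitor chains, read 8.76, 8.84, 8.82 and 8.88 untreated and 10.32, 10.49, 10.41 and 10.14 treated. All treated arrays were higher, by 1.52 ± 0.07 (2.86-fold, adjusted p = 2.73e-07). Ptx3, a pentraxin that joins the same hyaluronan-rich matrix, rose by 1.01 ± 0.06 (adjusted p = 2.14e-06). The hyaluronan synthases Has1 and Has2 rose by 0.47 and 0.36 (adjusted p = 0.011 and 0.0234), and the hyaluronan receptor Cd44 by 0.49 (adjusted p = 0.00105). The urokinase Plau and its receptor Plaur rose by 0.56 and 0.47 (adjusted p = 0.00196 and 0.00327), and the collagenase Mmp13 by 0.41 (adjusted p = 0.017). The call of Has2 was lost without untreated arrays 1, 2 or 4 or treated arrays 1, 2 or 3 (adjusted p = 0.0563 to 0.0716) and that of Mmp13 without untreated array 4 or treated array 4 (adjusted p = 0.0523 to 0.0561). The methods' t-test called none of Has1, Has2 and Mmp13 (adjusted p = 0.0814, 0.0979 and 0.0957).

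Among adhesion molecules and pattern recognition receptors, 10 of 32 rose and none fell. The endothelial-type selectin Sele rose by 3.0 ± 0.08 (8-fold, adjusted p = 2.55e-09). The 10 endothelial markers averaged 6.04 to 6.14 without and 6.10 to 6.34 with TNFα, and the part of endothelial cells in this rise was not tested. Icam1 and Vcam1, ligands of leukocyte integrins, rose by 2.35 ± 0.07 and 1.5 ± 0.06 (adjusted p = 6.65e-09 and 3.85e-08). Several risers are best known from leukocytes. Clec4e, a macrophage receptor for mycobacterial glycolipid, stood at 4.93, 4.99, 5.17 and 5.66 without and 8.01, 7.86, 7.92 and 7.26 with TNFα. The groups were far apart, with treated array 4 the lowest of its group, and the rise was 2.58 ± 0.18 (5.97-fold, adjusted p = 6.82e-06). Tlr2, a receptor of bacterial lipopeptides, rose by 2.25 ± 0.11 (adjusted p = 3.21e-07), and Ccrl2, a chemerin-binding receptor, by 1.70 ± 0.08 (adjusted p = 2.36e-07). The dendritic cell marker Cd83 rose by 1.83 ± 0.15, the fatty acid receptor Gpr84 by 1.76 ± 0.14 and the lymphocyte activation marker Cd69 by 1.58 ± 0.12 (adjusted p = 2.95e-05, 1.94e-05 and 1.48e-05). Cd14, the co-receptor of lipopolysaccharide, rose by 0.79 ± 0.07 (adjusted p = 4.34e-05). The 28 myeloid markers averaged 9.76, 9.57, 9.63 and 9.32 on treated arrays 1 to 4 and 9.32, 9.20, 9.58 and 9.48 on the untreated ones, so treated array 4, the lowest treated array for Clec4e, Tlr2, Ccrl2, Cd83, Gpr84, Cd69 and Cd14, also had the lowest myeloid level of its group. The myeloid level includes Cd14 itself, besides the risers Cybb and Clec4d, so for Cd14 the match is partly built in. The part of the myeloid cells in these rises was not tested.

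Regulators of the interferon response and the genes it induces were counted apart. Irf1, a factor that drives interferon-type genes, read 8.46, 8.45, 8.68 and 8.46 untreated and 11.81, 11.86, 11.77 and 11.73 treated. The groups were far apart, by 3.28 ± 0.07 (9.69-fold, adjusted p = 1.34e-10), while a second, dimmer Irf1 probe set changed by 0.36. Of 26 interferon regulatory, STAT and SOCS factors 6 rose and 1 fell. The feedback inhibitors Cish, Socs3 and Socs1 rose by 0.52, 0.51 and 0.40 (adjusted p = 0.000163, 0.00036 and 0.0117), Socs1 not by the methods' t-test (adjusted p = 0.0705), and Stat2 fell (-0.48 ± 0.08, adjusted p = 0.00388). Of 25 interferon-stimulated genes 1 rose (4%, against 2.27% of all genes), Gbp3 (0.55 ± 0.08, adjusted p = 0.00268), with a list median of 0.03. Gbp5, a guanylate-binding protein outside that list, rose from a dim level by 1.39 ± 0.13 (adjusted p = 7.48e-05), Slfn2, a regulator of T cell quiescence, by 1.51 ± 0.10 (adjusted p = 3.19e-06) and the class I gene H2-K2 by 1.23 ± 0.11 (adjusted p = 4.06e-05); H2-K2 belongs to a family of near-identical genes, so its probe set can carry the signal of relatives.

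Promoter sequence was set beside these responses because NF-κB binds a known motif. RefSeq promoter windows of 300 bases on GRCm38.p6, from 250 before to 50 after a start site, were at hand for 15614 of the 19938 genes (19177 windows) and were searched on both strands for the kappa B motif. It was found in 4.95% of all windows, in 17 of 31 windows (54.8%) of the familiar risers, in 52 of 419 (12.4%) of the other risers, in 23 of 141 (16.3%) of the other risers over 1.5-fold, and in 8 of 371 (2.16%) of the genes that fell. The stretches below, 25 bases to either side of a match with the match in capitals and written 5′ to 3′ along the gene's strand, show where it lies in genes named above (matches that overlap are joined).
Irf1 (chr11:53769976-53770035, plus strand): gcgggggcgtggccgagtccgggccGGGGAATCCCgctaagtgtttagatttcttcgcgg
Tlr2 (chr3:83841746-83841806, minus strand): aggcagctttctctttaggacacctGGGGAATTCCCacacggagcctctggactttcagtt
Tlr2 (chr3:83841582-83841641, minus strand): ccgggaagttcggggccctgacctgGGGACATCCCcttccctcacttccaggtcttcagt
Csf1 (chr3:107760589-107760648, minus strand): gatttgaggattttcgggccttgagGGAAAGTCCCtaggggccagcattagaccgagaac
Maff (chr15:79348307-79348366, plus strand): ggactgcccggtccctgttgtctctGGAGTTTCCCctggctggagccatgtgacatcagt
Casp4 (chr9:5308731-5308791, plus strand): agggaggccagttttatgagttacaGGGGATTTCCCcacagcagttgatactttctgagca
Ier3 (chr17:35821596-35821655, plus strand): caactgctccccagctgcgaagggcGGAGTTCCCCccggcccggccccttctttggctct
Gch1 (chr14:47189389-47189448, minus strand): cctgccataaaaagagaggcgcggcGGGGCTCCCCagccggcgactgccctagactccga
The match begins 13 bases before the start site in Irf1, 10 before it in Gch1, and 173 and 8 before it in Tlr2. Windows of Sele, Icam1, Btg2, Rgs16, Clec4e and Pim1 held no match, and Rnd1, Gem, Klf10 and Sik1 had no window here. A match is a description of letters and not a measured site.

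Falls were smaller than rises, and the deepest of them included developmental and zinc finger genes. Zfp503, a zinc finger repressor of the developing limb and brain, stood at 9.36, 9.39, 9.32 and 9.25 without and 8.57, 8.29, 8.30 and 8.47 with TNFα. All treated arrays were lower, by -0.92 ± 0.07 (1.89-fold lower, adjusted p = 1.61e-05). Dmrt2, a doublesex-type factor of somites, read 7.95, 7.90, 7.95 and 7.96 before and 7.17, 7.43, 7.24 and 7.11 after. The untreated arrays were nearly equal and all above the treated ones (-0.71 ± 0.07, adjusted p = 0.000113). The odd-skipped factors Osr1 and Osr2, which pattern mesoderm and limb, gave -0.67 (adjusted p = 0.00178) and -0.51 (adjusted p = 0.00327). Mab21l1 and Mab21l2, developmental genes of eye and body wall, gave -0.67 (adjusted p = 0.00423) and -0.52 (adjusted p = 0.00093). Dnm3os, a non-coding RNA of mesenchyme that carries microRNAs, fell (-0.63 ± 0.09, adjusted p = 0.00231), and so did Ephb3, an ephrin receptor (-0.60 ± 0.05, adjusted p = 4.34e-05). Sox9, the cartilage factor, fell by 0.33 and Sox2, a factor of stem and neural cells, by 0.45 on the log2 scale (adjusted p = 0.00579 and 0.0114), and Hes1, the Notch target, fell by 0.28 (adjusted p = 0.0326), the only called gene of 28 in the Notch and Wnt pathways. Other genes that fell included Irs1, the insulin receptor substrate (-0.48, adjusted p = 0.00206), and Ppp1r3c, which targets phosphatase to glycogen (-0.65, adjusted p = 0.0177). Falls were also called for Txnip, the thioredoxin-binding arrestin (-0.42, adjusted p = 0.0364), and the polycomb protein Pcgf1 (-0.52, adjusted p = 0.0162). Calls lost on leaving out 1 array were those of Ppp1r3c without untreated arrays 2 or 3 or treated arrays 1 or 3 (adjusted p = 0.0507 to 0.0617), Pcgf1 without untreated arrays 1 or 4 (adjusted p = 0.0565 to 0.0576), Txnip without untreated arrays 1, 2, 3 or 4 or treated arrays 2, 3 or 4 (adjusted p = 0.0662 to 0.108) and Hes1 without untreated arrays 1, 2, 3 or 4 or treated arrays 1, 3 or 4 (adjusted p = 0.0544 to 0.112). By the methods' t-test these 4 genes, Mab21l1 and Sox2 were not called (adjusted p = 0.0667 to 0.157).

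Cell cycle genes leaned downward by small amounts. Of 23 measured, 20 had a negative estimate (87%, against 46.2% of all genes), and the list median was -0.07. The treated arrays lay below all untreated ones for 4 of them, and for 6.11% of all genes. The list was bright, with a median level of 9.85. Among genes at 8 to under 10, the Zfp genes described below aside, 58.3% had a negative estimate and 2.53% fell. By the test none rose and 2 fell (8.70%, against 1.87% of all genes), Ccne1, cyclin E (-0.28 ± 0.07, adjusted p = 0.0331), and Aurka, a mitotic kinase (-0.24 ± 0.06, adjusted p = 0.0445). Leaving out 1 array ended both calls, that of Aurka for any of the 8 (adjusted p = 0.059 to 0.125) and that of Ccne1 for untreated arrays 1, 2 or 3 or treated arrays 1, 2 or 3 (adjusted p = 0.0649 to 0.113). Neither was called by the methods' t-test (adjusted p = 0.0675 for Aurka and 0.0851 for Ccne1), and Aurka was not called in the fit of all 16 arrays (0.0641) or after median centring (0.0713). Among 23 p53 targets and CDK inhibitors 8 rose and 1 fell. The inhibitor Cdkn2b (p15) rose by 0.55 ± 0.06 (adjusted p = 0.000194) and Cdkn1b (p27) fell by 0.36 on the log2 scale (adjusted p = 0.00856). Of 19 targets of serum response factor and YAP 2 rose (10.5%) and none fell, with a list median of 0.02. A mixed list, drawn up for repressors regulated by glucose or serum, also held patterning factors such as Sox9, Osr1 and Osr2. Of its 37 genes 6 rose (16.2%, against 2.27% of all genes), Rnd1 and Per1 among them. Another 5 fell (13.5%, against 1.87%), namely Txnip, Irs1, Sox9, Osr1 and Osr2.

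The most numerous group among the falls was the zinc finger genes named Zfp and a number, many of which encode DNA-binding repressors with a KRAB domain. This family was singled out after its values were seen, so its counts are a description without a test. Leaving aside the Zfp36 family, whose proteins bind RNA, 343 Zfp genes were measured, 1.72% of all genes. Of them 81 fell (23.6%, against 1.87% of all genes) and 5 rose (1.46%), and they made up 21.8% of all genes that fell and 20 of the 40 deepest falls. Without untreated array 1 the count that fell was 53. The median response of the family was -0.17, and the mean level of its 343 genes was 7.04, 7.04, 7.05 and 7.01 on the untreated arrays and 6.88, 6.87, 6.86 and 6.83 on the treated ones. Every treated array was lower than every untreated array, whereas the mean of the other 19595 genes was 7.13 to 7.15 without and 7.15 to 7.18 with TNFα. Within the same range of level, 6 to under 8, 50 of 170 Zfp genes fell (29.4%) against 132 of 5665 other genes (2.33%), and from 8 to under 10 it was 14 of 81 (17.3%) against 137 of 5409 (2.53%).

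Single members show how the family shift was made up. Zfp583 stood at 6.90, 7.05, 6.96 and 6.83 without and 6.22, 6.12, 6.13 and 6.25 with TNFα. The treated arrays were tight and all lower, by -0.75 ± 0.06 (1.68-fold lower, adjusted p = 2.95e-05). Zfp51 read 6.23, 6.07, 6.49 and 6.40 and then 5.59, 5.59, 5.62 and 5.42. The groups were apart (-0.74 ± 0.09, adjusted p = 0.000655), as they were for Zfp61 (-0.71 ± 0.09, adjusted p = 0.001) and Zfp790 (-0.63 ± 0.09, adjusted p = 0.00167). Zfp975, Zfp229 and Zfp72 fell by 0.89, 0.88 and 0.69 on the log2 scale (adjusted p = 0.00327, 0.00711 and 0.00875), calls that the methods' t-test did not make (adjusted p = 0.0671, 0.0941 and 0.0947). The means of Zfp51, Zfp975 and Zfp229 over the 8 arrays lay under log2 6. Many of these genes are near-identical copies in clusters, so a probe set may carry the signal of relatives. Other families named by a shared stem were not alike. Of 7 Irx genes 3 fell (42.9%) and of 12 Tbx genes 2 fell (16.7%), against 1.87% of all genes. Of 42 Zbtb genes 3 rose and 3 fell (7.14% each). Of 38 Hox genes 2 rose and 1 fell (2.63%), while 76.3% had a lower estimate. The 1027 olfactory receptor genes were dim, with a median level of 4.06. Of them 8 rose (0.779%, against 2.27% of all genes) and none fell. As a set these dim genes leaned upward, with a median response of 0.057 and a lower estimate for 29%, against 46.2% of all genes.

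**Figure D4:**
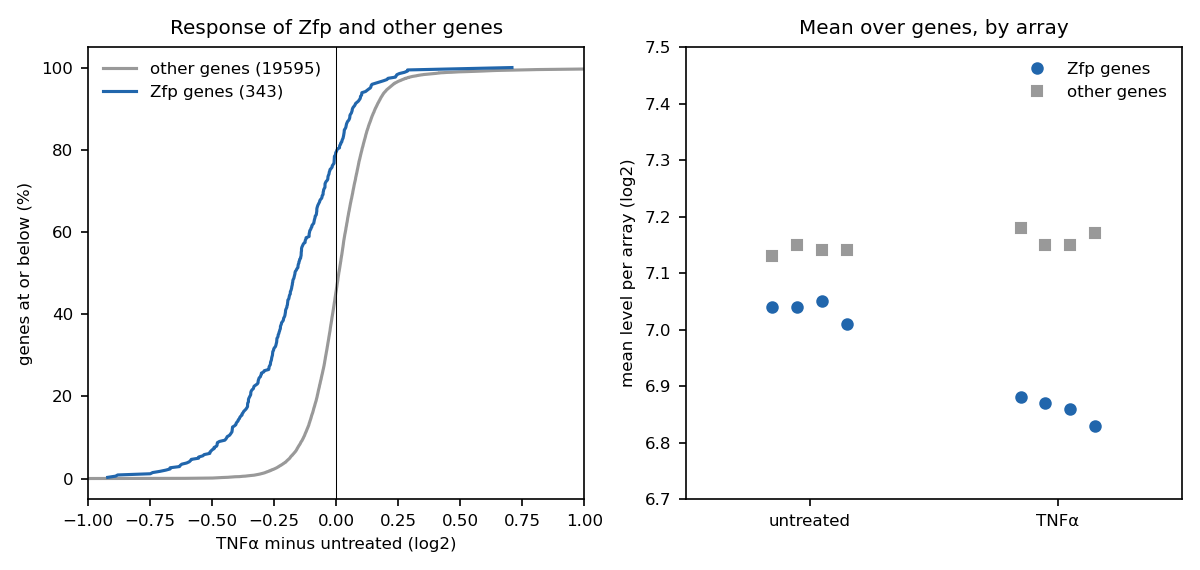
Left, the percentage of genes (vertical) with a log2 response at or below the value on the horizontal axis, for 343 Zfp genes (blue) and 19595 other genes (grey); right, the mean log2 level of the same 2 groups of genes on each littermate array, with the vertical axis running from 6.7 to 7.5. The blue curve lies to the left of the grey one, and the Zfp means of 7.01 to 7.05 without TNFα become 6.83 to 6.88 with it.

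For some motifs the promoters of the genes that fell differed in letters from those of the risers. The ETS core CCGGAAG, on either strand, was in 12.1% of all 19177 windows, in 76 of 371 windows (20.5%) of the genes that fell, in 28 of 419 (6.68%) of the risers outside the familiar lists and in 67 of 349 (19.2%) of all Zfp windows. Among the Zfp genes that fell it was in 17 of 76 windows (22.4%), and among the other genes that fell in 59 of 295. GCGCATGCG, the core of the NRF1 motif, was in 10 of 76 windows (13.2%) of the falling Zfp genes, against 4.58% of all Zfp windows and 2.54% of all windows. The CArG box of serum response factor was in 4 of 28 windows (14.3%) of the rising immediate early factors, against 1.41% of all windows. Shares near those of all windows were seen for TGANTCA (AP-1), with 6.92% of the risers outside the familiar lists against 6.90% of all windows, and for CACGTG (E-box), with 8.83% against 8.24%. The genes that fell had TGANTCA in 4.58% of their windows and CACGTG in 8.89%. TGACGTCA (CRE) was in 4.30% of the risers outside the familiar lists and 3.5% of the genes that fell, against 2.37% of all windows. TATAAA was in 11.2% of those risers and 7.82% of the genes that fell, against 11.5%. AAGATGGCG, the core of the YY1 motif, was in 0.955% of those risers and 4.04% of the genes that fell, against 1.93% of all windows. The ETS core was also looked for in the 20 Zfp genes among the 40 deepest falls, not all of which need have had a window. Only Zfp825 and Zfp759 showed it, so the pair does not stand for the deepest falls. Their stretches are given below with the match in capitals.
Zfp825 (chr13:74493941-74494000, minus strand): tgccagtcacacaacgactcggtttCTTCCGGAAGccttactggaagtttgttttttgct
Zfp759 (chr13:67128126-67128182, plus strand): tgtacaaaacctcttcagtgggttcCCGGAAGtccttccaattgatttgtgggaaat
Zfp825 carries the core on both strands in 1 overlapping stretch and again further upstream. These shares are descriptions and were not tested.

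MicroRNA hairpins gave dim probe sets and are described here for the miR-17-92 cluster on chromosome 14. Mir19a stood at 3.23, 3.15, 3.30 and 3.07 without and 3.5, 3.85, 4.10 and 3.74 with TNFα. The groups were apart by 0.61 ± 0.11 (adjusted p = 0.00874). Mir19b-1 and Mir20a rose by 0.63 ± 0.15 and 0.41 ± 0.10 (adjusted p = 0.0432 and 0.0418), while Mir17 and Mir18 of the same transcript were not called (0.22 ± 0.08 and 0.42 ± 0.20, adjusted p = 0.21 and 0.329). Mirlet7c-1 and Mir125b-1, members of families that accompany differentiation, fell by 0.53 and 0.36 on the log2 scale (adjusted p = 0.00754 and 0.0147). Over all 296 microRNA genes 4 rose (1.35%) and 2 fell (0.676%), shares below those of all genes, so the calls are not set apart from the background. The probe sets read the hairpin or its precursor and not the mature strand. The mature RefSeq sequences show, with the seed (bases 2 to 8) in capitals, that miR-19a and miR-19b share 1 seed and miR-17 and miR-20a another.
mmu-miR-19a-3p (chr14:115044048-115044070, plus strand): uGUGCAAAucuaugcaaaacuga
mmu-miR-19b-3p (chr14:115044358-115044380, plus strand): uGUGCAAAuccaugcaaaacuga
mmu-miR-20a-5p (chr14:115044183-115044205, plus strand): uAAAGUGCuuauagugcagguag
mmu-miR-17-5p (chr14:115043684-115043706, plus strand): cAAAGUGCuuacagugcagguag
mmu-let-7c-5p (chr16:77599672-77599693, plus strand): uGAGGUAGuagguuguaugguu
mmu-miR-125b-5p (chr9:41581940-41581961, plus strand): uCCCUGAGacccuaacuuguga
The call of Mir19b-1 was lost without untreated arrays 1, 2 or 4 or treated arrays 2 or 3 (adjusted p = 0.0703 to 0.125), that of Mir20a without untreated arrays 1, 2, 3 or 4 or treated arrays 2, 3 or 4 (adjusted p = 0.0518 to 0.116), and that of Mir125b-1 without untreated arrays 1 or 4 (adjusted p = 0.0516 to 0.0551), and Mir18 would have been called without treated array 1. Mir20a and Mir125b-1 were also not called in the fit of all 16 arrays (adjusted p = 0.0511 and 0.0572), nor Mir20a and Mir19b-1 after quantile normalization (adjusted p = 0.0945 and 0.0776). The methods' t-test called none of Mir19a, Mir19b-1, Mir20a, Mirlet7c-1 and Mir125b-1 (adjusted p = 0.0692 to 0.2).

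To ask which of these responses differed in SIMPL-/- MEFs, the difference between both responses was tested in a fit of all 16 arrays. The littermate response was the more positive for 88 genes (0.441%) and the more negative for 19 (0.0953%). Of the 420 risers outside the familiar lists 67 had a more positive littermate response and none a more negative one. Of the 372 genes that fell, 12 had a more negative littermate response and 1 a more positive one. These genes were picked by their call on the littermate arrays, which also enter the difference. Both splits therefore lean toward a larger littermate response by selection, and no conclusion is drawn from them. In SIMPL-/- cells 345 genes rose (1.73%) and 278 fell (1.39%). The count of 19 depended on single arrays. It rose to 54 without SIMPL-/- treated array 3 and came to 5 without SIMPL-/- treated array 2, to 8 without littermate untreated array 1, SIMPL-/- untreated array 4 or SIMPL-/- treated array 4, to 9 without littermate untreated arrays 2 or 4 or SIMPL-/- untreated array 1, to 10 without SIMPL-/- untreated array 3 and to 12 without littermate treated array 1.

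Rnd1 rose in SIMPL-/- cells too, from 7.26, 7.28, 7.26 and 7.09 to 8.92, 8.81, 9.20 and 8.99. Untreated SIMPL-/- arrays were already above all untreated littermate arrays, and the littermate response was greater by 1.64 ± 0.18 (adjusted p of the difference = 6.12e-05). Gem differed by 0.78 ± 0.09 and Rasgef1b by 1.20 ± 0.20 (adjusted p = 7.13e-05 and 0.0053). Rgs4 had an estimate of -0.25 in SIMPL-/- cells, which was not called, and a difference of 1.07 ± 0.13 (adjusted p = 0.000151). Dusp6 stood at 9.67, 9.59, 9.64 and 9.67 without and 9.49, 9.51, 9.38 and 9.71 with TNFα in SIMPL-/- cells. Those groups overlapped, and the difference in response was -0.93 ± 0.11 (adjusted p = 7.68e-05). Among the leukocyte-type genes, Clec4e differed by 2.11 ± 0.24, Ccrl2 by 1.51 ± 0.12, Tlr2 by 1.45 ± 0.15 and Cd69 by 1.38 ± 0.15 (adjusted p = 0.000102, 1.6e-06, 4.08e-05 and 6.12e-05). The mean of the 28 myeloid markers, 9.20 to 9.76 on the littermate arrays and 7.29 to 7.40 on the SIMPL-/- arrays, moved with genotype, and its part in these differences was not tested.

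Other responses had no called difference. Lif rose by 1.83 in SIMPL-/- cells and differed by -0.46 ± 0.16 (adjusted p = 0.223). Ch25h rose there by 1.57, a difference of -0.34 ± 0.09 (adjusted p = 0.147). Nr4a1 rose by 1.73 and Nr4a3 by 1.64, differences of 0.16 ± 0.21 and -0.06 ± 0.18 (adjusted p = 0.791 and 0.916). Il6 read 6.00, 6.21, 5.87 and 5.89 without and 7.55, 7.63, 7.85 and 7.54 with TNFα in SIMPL-/- cells. These arrays were all above the littermate arrays of the same treatment, and the difference in response of -0.76 ± 0.24 was not called (adjusted p = 0.186). Ephb3 fell in both genotypes, by 0.79 on the log2 scale in SIMPL-/- cells, with a difference of 0.19 ± 0.08 (adjusted p = 0.316). A missed threshold does not show that 2 responses were equal. The Zfp genes had a median response of -0.08 in SIMPL-/- cells, where 20 of 343 fell (5.83%, against 1.39% of all genes), and of the 81 that fell in littermate cells 75 had a lower estimate there, 14 fell by the test and 2 had a more negative littermate response.

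**Figure D5:**
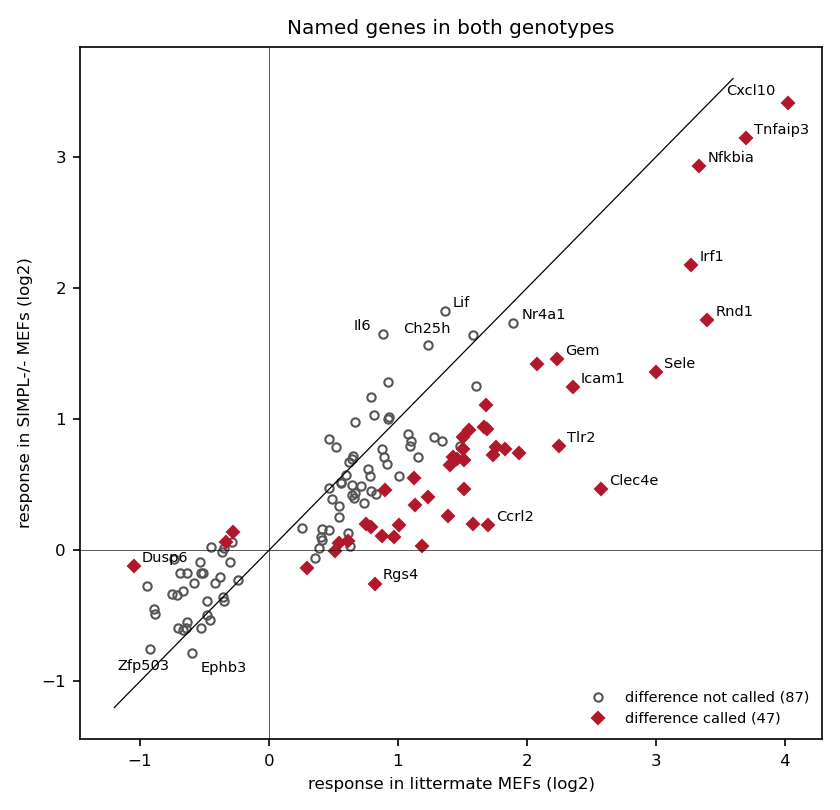
Log2 response to TNFα in littermate MEFs (horizontal) and in SIMPL-/- MEFs (vertical) for the 134 genes named here that rose or fell in littermate cells; red diamonds are the 47 with a called difference between the responses, open circles the other 87, and the diagonal marks equal responses. Most diamonds lie below the diagonal, Clec4e, Sele and Rnd1 farthest, while Lif, Il6 and Ch25h lie above it without a called difference. The genes shown were called on the littermate arrays, a choice that leans the points toward a larger littermate response.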

How the data were processed

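RNA of littermate and SIMPL-/- MEFs, untreated or given TNFα, was read on Affymetrix Mouse Gene 1.0 ST arrays, 4 arrays per group and 16 in all. The authors deposited a table of log2 values, made by RMA in Partek per the submitters' processing notes, whose versions are not given in the sources used here. The methods text names the Affymetrix Microarray Suite instead. RMA subtracts background, equalizes array distributions and pools probes, so a small shift shared by all genes is removed and the change of dim genes is understated.

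Of 28853 probe sets, 21789 carried 1 gene symbol, 1621 several and 5443 none in the platform annotation. The probe set with the highest mean stood for each of 19938 genes (999 had more than 1), and no dim gene was left out, 6709 genes lying under a mean of log2 6. Genes named above with a mean under log2 6 include Gch1, Cd69, H2-K2, Bmp2 and Ppp1r3c, besides Il6, Csf2 and Gbp5. Medians of the littermate arrays were 7.06 to 7.10. The lowest correlation between arrays of a littermate group was 0.996 across genes, which are not independent replicates. The number of arrays limits the precision.

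Treated and untreated littermate arrays were compared with lmFit and eBayes of limma 3.58.1 in R 4.3.3, two-sided, with Benjamini-Hochberg adjustment over all genes. Differences between genotypes were tested in a fit of 4 group means over 16 arrays. The steps were tested on simulated data. The alternatives were all arrays in 1 fit, median centring, quantile normalization, a filter on dim genes, means over probe sets, trend and robust moderation, array weights, the methods' t-test, other thresholds and leaving out each array.

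The genes and lists were chosen with earlier results of these data known. Called genes outside the familiar lists with groups apart, the 40 greatest rises and the 40 greatest falls, were named where their role is known and they are not predicted genes, besides the most changed and the defining members of each list and 3 familiar genes for scale. Defining members that were not called are named with their values. The Zfp family, the other families named by a stem and the counts in SIMPL-/- arrays were added after seeing the values. The response of 1 gene of this pathway is not reported here. Promoter and microRNA sequences are RefSeq sequences on GRCm38.p6.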

Additional observations from a re-analysis of the deposited data

Results flagged for a closer look

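For 19 of the named genes, 1 of the 4 arrays of a group stood apart from the others by Dixon's test. Chance marks about 1 in 20 groups, and 2 groups were tested for each of the 140 named genes. Treated array 1 recurred: its log2 levels of Il6 (4.97), Ereg (6.71), Fgf7 (10.42), Myc (9.69), Ch25h (10.01), Spry2 (8.99), Vcam1 (11.67) and Cd44 (9.59) stood apart from the other 3 treated arrays. The other arrays that stood apart were treated array 3 for Zfp36 (9.25), treated array 4 for Zfp51 (5.42) and Dnm3os (7.32), untreated array 1 for Gem (7.38), Nr4a3 (6.24) and Mir18 (4.03), untreated array 3 for Irf1 (8.68) and Klf7 (8.66) and untreated array 4 for Zfp229 (5.77), Tnfsf15 (6.91) and Plaur (7.78). 

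The log2 response to TNFα differed between littermate and SIMPL-/- cells for 47 of the 140 named genes, at an adjusted p under 0.05 for the difference in the limma fit of all 16 arrays. The littermate response was the more positive for 44 of them. Many named genes were picked by their littermate response, so this split leans that way by selection. The difference, on the log2 scale, was at least 1 for Clec4e (2.11), Rnd1 (1.64), Sele (1.64), Ccrl2 (1.51), Tlr2 (1.45), Cd69 (1.38), Rasgef1b (1.2), Tnfsf9 (1.16), Gbp5 (1.13), Icam1 (1.11), Irf1 (1.1), Rgs4 (1.07), Cd83 (1.05), Tnfaip6 (1.05) and Pim1 (1.01). It was between 0.7 and 1 for Gpr84 (0.97), Cebpd (0.87), H2-K2 (0.83), Csf1 (0.82), Acod1 (0.81), Casp4 (0.79), Gem (0.78), Fas (0.77), Btg2 (0.76), Tnfsf15 (0.76), Map3k8 (0.75), Slfn2 (0.73), Gadd45b (0.73) and Maff (0.72), and smaller for Stx11 (0.65), Sik1 (0.64), Vcam1 (0.63), Cxcl10 (0.61), Cd14 (0.61), Rgs16 (0.58), Csrnp1 (0.58), Tnfaip3 (0.56), Btg1 (0.55), Klf7 (0.54), Socs3 (0.52), Cdkn2b (0.49), Fgf7 (0.44), Rnd3 (0.43) and Nfkbia (0.4). It was negative for Sox9 (-0.39), Hes1 (-0.42) and Dusp6 (-0.93). The myeloid marker level given above differed between the genotypes on every array, and its part in these differences was not tested.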

How the results depend on the processing

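No paired analysis was possible because the labels carry no replicate numbers and tie no treated array to an untreated one. Of 140 named genes none changed direction under any alternative. Of the 134 called, 31 lost the call under at least 1 alternative, and Ptgs2 and Mir18 gained it. The counts of calls moved more. The methods' t-test gave 301 genes that rose, 200 that fell, 14 that fell by its 1.5-fold limit and 41 Zfp genes that fell. An adjusted p under 0.01 left 261 risers, 117 fallers and 40 falling Zfp genes. Requiring 1.5-fold as well left 172 risers, 27 fallers and 15 falling Zfp genes. An unadjusted p under 0.05 gave 1601, 1606 and 169 in the same order. Trend and robust moderation gave 590 fallers. Leaving out 1 array gave 307 to 402 risers, 174 to 301 fallers, 53 to 66 falling Zfp genes and 22 to 24 rising immediate early factors, and by the 1.5-fold rule 152 to 169 risers and 18 to 29 fallers.

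For the difference between genotypes, trend and robust moderation gave 155 genes with a more positive littermate response and 97 with a more negative one, and an adjusted p under 0.01 gave 41 and 2. The count of more negative responses was 39 after quantile normalization, 38 without dim genes and 50 with array weights. Leaving out 1 array gave 61 to 130 more positive and 5 to 54 more negative responses. The other counts under these alternatives stayed within 1.5 times the reported ones. The cause of these shifts was not tested. Signal limits the dim genes: no level can be told from background in this table, and fold changes of genes near its lower end are understated.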
